A study of Homo sapiens with 9 samples.

Results

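The 8 genes described here encode cytokines. These are the colony-stimulating factors CSF3, CSF2 and CSF1, the interleukin-6 family members IL6, LIF and IL11, and the interleukin-1 cytokines IL1A and IL1B. The transcripts were measured in MDA-MB-231, an established human triple-negative breast cancer line with mesenchymal-like traits. The deposited tables list genomic intervals without gene names. Each cytokine was therefore taken as the interval on hg19 with the highest overlap divided by union with the known span of the gene, which gave 8 of 55527 intervals. These ratios ran from 0.915 for LIF to 0.996 for IL6, and the interval lengths were 0.998 to 1.275 times those of the same genes in the RefSeq table on GRCh38.p14. The set was drawn up around CSF3, which was chosen by its TPM, low with both hairpins against shScr, with the other 7 selected on earlier results of these data, so levels against shScr are given as a description and not as a test.

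The series held 9 libraries of total RNA from cells that carried a lentiviral short hairpin RNA after puromycin selection: 3 with shCTDP1-#1, 3 with shCTDP1-#2 and 3 with the scrambled hairpin shScr. Both shCTDP1 hairpins target CTDP1, a phosphatase that removes phosphate from the tail of RNA polymerase II. All 3 groups share the line, the virus production in 293FT cells and the selection. Separate cultures are not mentioned for the libraries within a group, so p-values cover only the spread between libraries, which may be technical. Levels are in TPM, a transcript's length-scaled share of its library, and the depth of the libraries is unknown. The libraries with an shCTDP1 hairpin had 21714 to 22636 intervals above 0, against 19688 to 20208 with shScr. Whether this difference bears on the levels against shScr was not tested.

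Cytokines of these families are short-lived signals. Colony-stimulating factors drive the growth and survival of granulocytes and macrophages. The interleukin-6 family signals through the shared receptor subunit IL6ST and the transcription factor STAT3, and interleukin-1 signals through MYD88 to NF-kappa B, which in turn switches on many cytokine genes. Their mRNAs often carry AU-rich elements, repeats of AUUUA in the 3′ untranslated region that promote rapid decay. MDA-MB-231 is known for secreting several of these proteins.

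The AU-rich stretches are shown first because they are read from the transcript sequence and not from the levels in these libraries. For each gene, the 30 bases of the 3′ untranslated region with the most ATTTA copies are printed as DNA from the GENCODE v29 transcript with the longest coding sequence, with each ATTTA in capitals.
CSF3: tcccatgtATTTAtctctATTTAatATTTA
CSF2: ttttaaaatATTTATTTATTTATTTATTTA
CSF1: tttatataaagtcATTTAaatatctATTTA
IL6: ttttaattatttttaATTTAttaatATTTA
LIF: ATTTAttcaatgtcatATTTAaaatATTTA
IL11: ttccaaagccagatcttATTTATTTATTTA
IL1A: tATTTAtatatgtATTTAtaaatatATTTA
IL1B: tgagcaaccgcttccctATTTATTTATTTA
CSF2 had 8 copies of ATTTA in 318 bases, or 25.2 per kb, a density reached by 0.17% of 19443 protein-coding genes. CSF3 had 7 copies in 854 bases (8.2 per kb, reached by 2.695% of genes), and IL6 had 6 copies in 429 bases (13.99 per kb, reached by 0.71%). CSF1 and LIF stood at 1.86 and 2.18 per kb, densities that 40.5% and 35.8% of genes reached. The overlapping repeat ATTTATTTA was present in 3 of the 8 genes, CSF2, IL11 and IL1B, against 5.79% of all genes. The set was drawn up from cytokines, whose mRNAs often carry such repeats, so the distance from all genes is no separate result. A match in these letters is a description of the sequence and does not show a working element.

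RefSeq promoter windows, which run from 250 bases before to 50 bases after the start, were at hand for 5 of the 8 genes: CSF2, IL6, IL11, IL1A and IL1B. CSF3, CSF1 and LIF were not matched. The 4 windows below are 1 for each gene with a match to the searched motifs. Capitals mark TGANTCA (the AP-1 motif), a form of the kappa B motif (GGG, any 2 bases, TT, any base, CC), GAGATTCC (the core of the CK-1 element known from colony-stimulating factor genes) and TATAAA, each searched on both strands.
CSF2 (GRCh38.p14, chr5:132073539-132073838, plus strand): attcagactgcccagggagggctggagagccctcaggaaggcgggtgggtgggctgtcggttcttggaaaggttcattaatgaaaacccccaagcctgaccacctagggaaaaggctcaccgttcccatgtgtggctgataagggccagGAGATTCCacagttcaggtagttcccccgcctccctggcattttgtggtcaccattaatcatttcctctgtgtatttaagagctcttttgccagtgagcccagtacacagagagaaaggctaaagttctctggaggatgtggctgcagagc
IL6 (GRCh38.p14, chr7:22726950-22727249, plus strand): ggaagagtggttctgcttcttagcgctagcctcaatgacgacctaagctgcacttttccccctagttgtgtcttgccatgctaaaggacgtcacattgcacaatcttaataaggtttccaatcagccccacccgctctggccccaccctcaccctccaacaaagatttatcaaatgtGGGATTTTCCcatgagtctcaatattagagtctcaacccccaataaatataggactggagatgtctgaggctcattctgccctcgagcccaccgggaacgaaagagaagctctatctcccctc
IL11 (GRCh38.p14, chr19:55370414-55370713, minus strand): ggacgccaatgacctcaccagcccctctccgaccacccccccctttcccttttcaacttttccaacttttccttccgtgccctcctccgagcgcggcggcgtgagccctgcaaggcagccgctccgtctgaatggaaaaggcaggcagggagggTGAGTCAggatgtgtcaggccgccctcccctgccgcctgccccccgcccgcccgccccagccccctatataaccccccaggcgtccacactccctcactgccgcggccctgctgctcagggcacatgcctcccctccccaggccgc
IL1A (GRCh38.p14, chr2:112784351-112784650, minus strand): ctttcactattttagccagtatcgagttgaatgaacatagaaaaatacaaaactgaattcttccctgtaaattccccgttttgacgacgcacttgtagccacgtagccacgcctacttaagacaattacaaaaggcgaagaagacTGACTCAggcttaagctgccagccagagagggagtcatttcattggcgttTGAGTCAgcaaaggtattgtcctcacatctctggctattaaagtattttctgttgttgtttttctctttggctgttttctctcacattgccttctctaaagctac
The CSF2 window held GAGATTCC, beginning 101 bases before the start, a motif found in 0.869% of the 35116 windows of that length. The IL6 window held GGGATTTTCC 73 bases before the start, and the kappa B form occurred in 5.68% of all windows. The IL11 window held TGAGTCA 96 bases before the start, and the IL1A window held TGACTCA and TGAGTCA, 105 and 55 bases before it. The AP-1 motif occurred in 7.71% of all windows, and TATAAA in 11.5%. The second IL1A window, from another start site, holds the same AP-1 letters, 12 bases before and 38 after its start, and holds TATAAA 239 bases before that start. The IL1B window held none of the 4 motifs. No motif was in all the windows.

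CTDP1 itself was matched in the same way, to chromosome 18 from 77439801 to 77514510 on hg19. Its level was 2.46, 2.62 and 2.46 TPM with shCTDP1-#1 and 3.77, 3.42 and 4.10 TPM with shCTDP1-#2, against 13.06, 12.38 and 12.01 TPM with shScr. The groups did not overlap. The log2 change was -1.94 (SE 0.10, limma adjusted p = 6.3e-08) with shCTDP1-#1 and -1.50 (SE 0.10, limma adjusted p of 4e-07) with shCTDP1-#2, so the targeted transcript was lower in all 6 knockdown libraries.

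The line's labels were checked against marker genes. VIM, CD44, EGFR and AXL lay between 41.89 and 3640.79 TPM in all libraries, while ESR1, PGR and CDH1 stayed at or below 1.08 TPM and GATA3 at or below 4.59 TPM. Of 4 matched markers of other cells (CD14, CD3E, VWF and CDH5), CD14 reached 4.11 TPM and the others at most 0.62 TPM. The summed level of VIM, CD44, EGFR and AXL was 2619.59 to 2777.78 TPM with shCTDP1-#1 and 3495.1 to 3694.47 TPM with shCTDP1-#2, against 4935.69 to 4995.34 TPM with shScr. VIM fell with both hairpins (log2 changes -1.27 and -0.79, limma adjusted p = 1.2e-09 and 2.8e-08), and the part of this shift in the cytokine levels was not tested. EGFR rose with shCTDP1-#1 (0.52, limma adjusted p = 0.0048) and was not called with shCTDP1-#2 (0.15, adjusted p = 0.31). CD44 and AXL fell with shCTDP1-#1 (-0.26 and -0.12, limma adjusted p = 0.00019 and 0.023). Both rose with shCTDP1-#2 (0.15 and 0.14, adjusted p = 0.0077 and 0.014). GATA3 fell with both (-1.20 and -0.76, limma adjusted p = 2.6e-05 and 0.00068). The summed level of the 4 markers of other cells was 2.95 to 4.59 TPM with shCTDP1-#1, 2.65 to 3.84 TPM with shCTDP1-#2 and 3.15 to 4.2 TPM with shScr. Between libraries, log2 values over the tested intervals correlated at 0.988 to 0.990 within groups and at 0.947 to 0.971 between groups. The mitochondrial share was 4.49% in shScr replicate 1, against 1.12% and 1.66% in the other shScr libraries. Without that library, 6 of the 8 cytokines were called lower than shScr with shCTDP1-#1 and 8 with shCTDP1-#2, the same counts as with it. With all libraries, 27.7% and 24.6% of all tested intervals were called lower. The set was built on these comparisons, so the counts cannot test whether that library matters.

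Each of the 8 cytokines had a lower mean with either shCTDP1 hairpin than with shScr. Summed over the 8 genes, the level was 254.99, 268.64 and 255.93 TPM with shCTDP1-#1 and 237.35, 233.36 and 210.86 TPM with shCTDP1-#2, against 594.79, 620.26 and 624.33 TPM with shScr. Every knockdown library lay below every shScr library. In these bulk samples, fewer cells making a transcript and less of it per cell cannot be told apart.

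**Figure D1:**
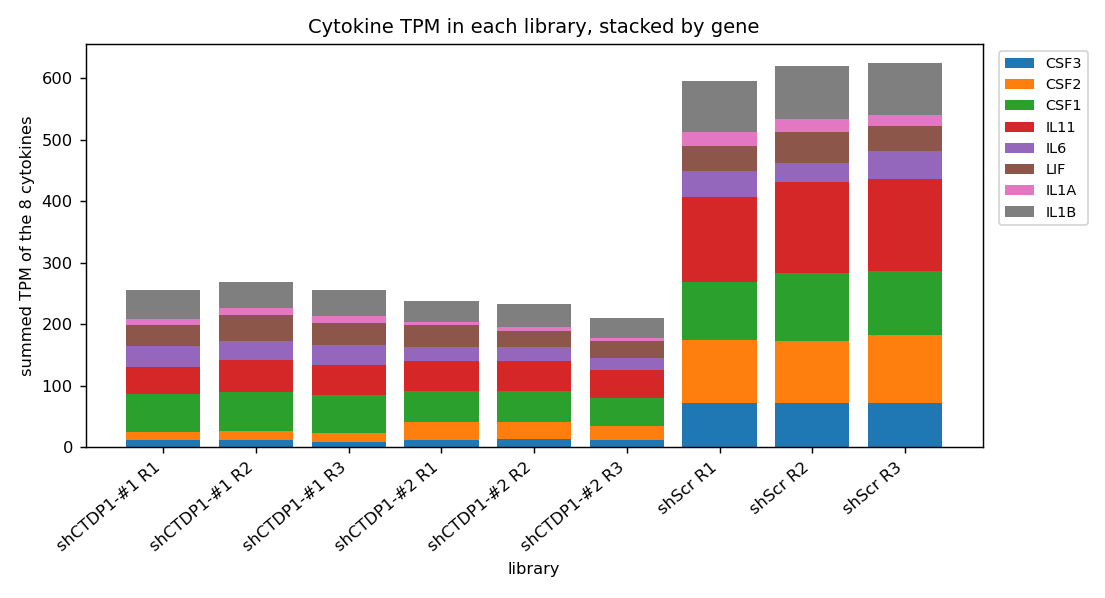
Summed TPM (vertical axis) of the 8 cytokines in each of the 9 libraries (horizontal axis), stacked by gene with 1 colour each. The 6 libraries with an shCTDP1 hairpin reached 210.86 to 268.64 TPM and the 3 shScr libraries 594.79 to 624.33 TPM.

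CSF3, granulocyte colony-stimulating factor, lies on chromosome 17 from 38171614 to 38174066. It was at 11.89, 11.41 and 8.57 TPM with shCTDP1-#1 and at 12.81, 13.94 and 12.25 TPM with shCTDP1-#2, against 72.19, 72.28 and 72.60 TPM with shScr. The shScr libraries were within 1 TPM of each other and far above all 6 knockdown libraries. The log2 differences from shScr were -2.67 (SE 0.10) with shCTDP1-#1 and -2.39 (SE 0.10) with shCTDP1-#2, which ranked 7 and 6 from the bottom among 15011 tested intervals.

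CSF2, granulocyte-macrophage colony-stimulating factor, lies on chromosome 5 from 131409483 to 131411859 and carries the dense ATTTA repeat printed above. Its level was 13.80, 15.46 and 14.32 TPM with shCTDP1-#1 and 27.99, 27.85 and 23.23 TPM with shCTDP1-#2, against 102.98, 99.98 and 110.83 TPM with shScr. The 3 groups did not overlap, and shCTDP1-#1 was the lowest. The log2 differences from shScr were -2.77 (SE 0.08) and -1.95 (SE 0.08). In TPM, the CSF2 mean was 13.9% of the shScr mean with shCTDP1-#1 and 25.2% with shCTDP1-#2.

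CSF1, macrophage colony-stimulating factor, lies on chromosome 1 from 110452864 to 110473614. It was at 60.75, 62.96 and 61.52 TPM with shCTDP1-#1 and at 50.68, 50.60 and 45.09 TPM with shCTDP1-#2, against 93.65, 111.03 and 102.44 TPM with shScr. The groups were again separate, but the distance was smaller than for the other colony-stimulating factors. The log2 differences were -0.72 (SE 0.07) and -1.05 (SE 0.07).

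**Figure D2:**
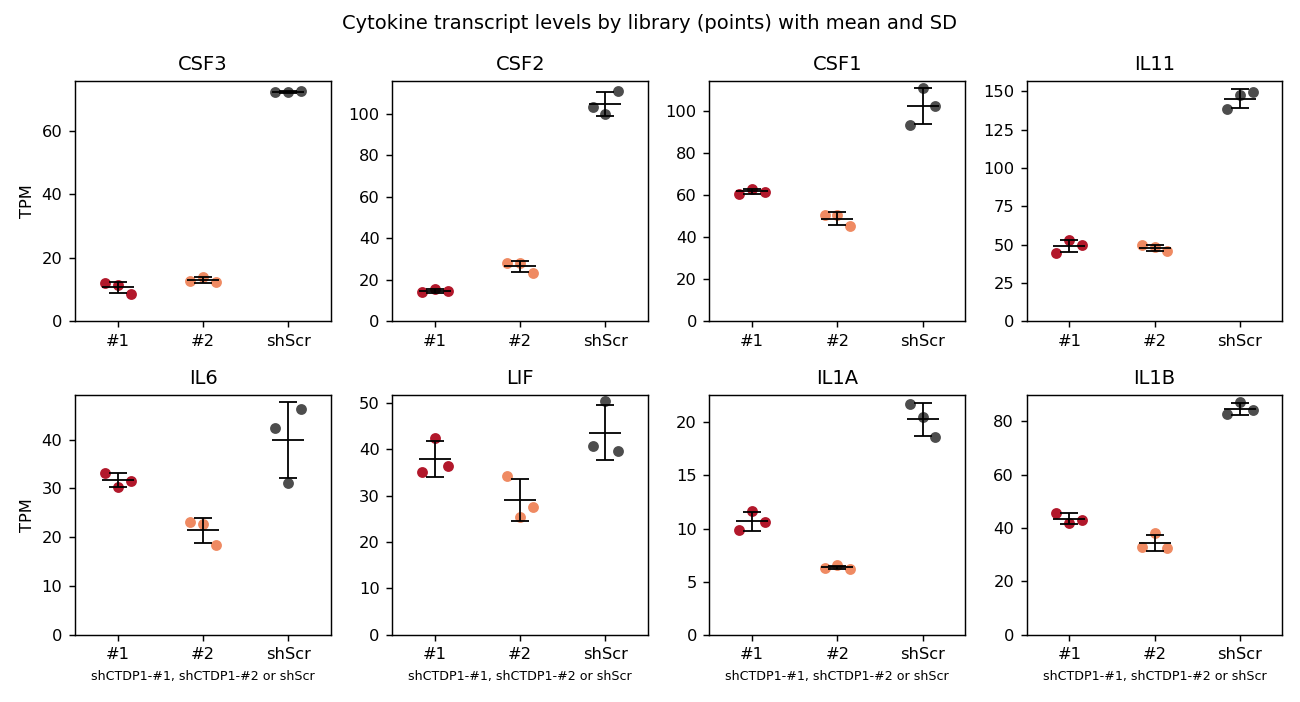
TPM (vertical axis, from 0, with its own scale in each panel) of each cytokine in the libraries with shCTDP1-#1, shCTDP1-#2 and shScr (horizontal axis). Points are libraries and bars the mean with its SD; CSF3 lay at 8.57 to 13.94 TPM with the shCTDP1 hairpins and at 72.19 to 72.60 TPM with shScr, while IL6 and LIF with shCTDP1-#1 overlapped shScr.

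IL11, an interleukin-6 family cytokine known to be induced by TGF-beta in breast cancer cells that metastasise to bone, lies on chromosome 19 from 55875757 to 55881831. It had the highest level of the 8 genes in shScr cells. It was at 44.67, 52.69 and 50.01 TPM with shCTDP1-#1 and at 49.42, 48.45 and 45.63 TPM with shCTDP1-#2, against 138.43, 147.68 and 149.97 TPM with shScr. Both hairpins gave about the same level, well below shScr. The log2 differences were -1.55 (SE 0.06) and -1.58 (SE 0.06).

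IL6, the founding member of its family, lies on chromosome 7 from 22765503 to 22771621. Its level was 33.24, 30.26 and 31.54 TPM with shCTDP1-#1 and 23.03, 22.68 and 18.49 TPM with shCTDP1-#2, against 42.43, 31.11 and 46.20 TPM with shScr. The shCTDP1-#2 libraries lay below all shScr libraries, while shScr replicate 2 lay inside the range of shCTDP1-#1. The log2 differences were -0.31 (SE 0.13) and -0.86 (SE 0.13). With shCTDP1-#1 the value was -0.47 without shScr replicate 2, where IL6 passed the threshold, and -0.19 without shScr replicate 3. IL6 also passed the threshold with shCTDP1-#1 after median-of-ratios scaling, at -0.37. Another interval overlaps IL6, with at most 1.18 TPM in any library; the library kit does not mark strand, so reads in the overlap cannot be assigned by it.

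LIF, which supports stem cell self-renewal in mouse and acts through the LIFR and IL6ST receptor pair, lies on chromosome 22 from 30636436 to 30642840. It was at 35.20, 42.44 and 36.42 TPM with shCTDP1-#1 and at 34.27, 25.34 and 27.63 TPM with shCTDP1-#2, against 40.81, 50.53 and 39.60 TPM with shScr. The shCTDP1-#1 libraries overlapped shScr and the shCTDP1-#2 libraries did not. The log2 differences were -0.19 (SE 0.12) and -0.57 (SE 0.12), the smallest of the set with either hairpin. With shCTDP1-#1 it was -0.08 without shScr replicate 2. Of the overlapping intervals at LIF, none exceeded 0.67 TPM.

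IL1A and IL1B are neighbours on chromosome 2, from 113531492 to 113542167 and from 113587328 to 113594480, and encode agonists of the interleukin-1 receptor. IL1A was at 9.83, 11.61 and 10.58 TPM with shCTDP1-#1 and at 6.31, 6.53 and 6.22 TPM with shCTDP1-#2, against 21.72, 20.50 and 18.66 TPM with shScr. IL1B was at 45.61, 41.81 and 42.97 TPM with shCTDP1-#1 and at 32.84, 37.97 and 32.32 TPM with shCTDP1-#2, against 82.58, 87.15 and 84.03 TPM with shScr. For both genes the 3 groups were separate and shCTDP1-#2 was the lowest. The log2 differences of IL1A were -0.87 (SE 0.09) and -1.53 (SE 0.09), and those of IL1B -0.945 (SE 0.065) and -1.28 (SE 0.065), with shCTDP1-#1 given before shCTDP1-#2.

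**Figure D3:**
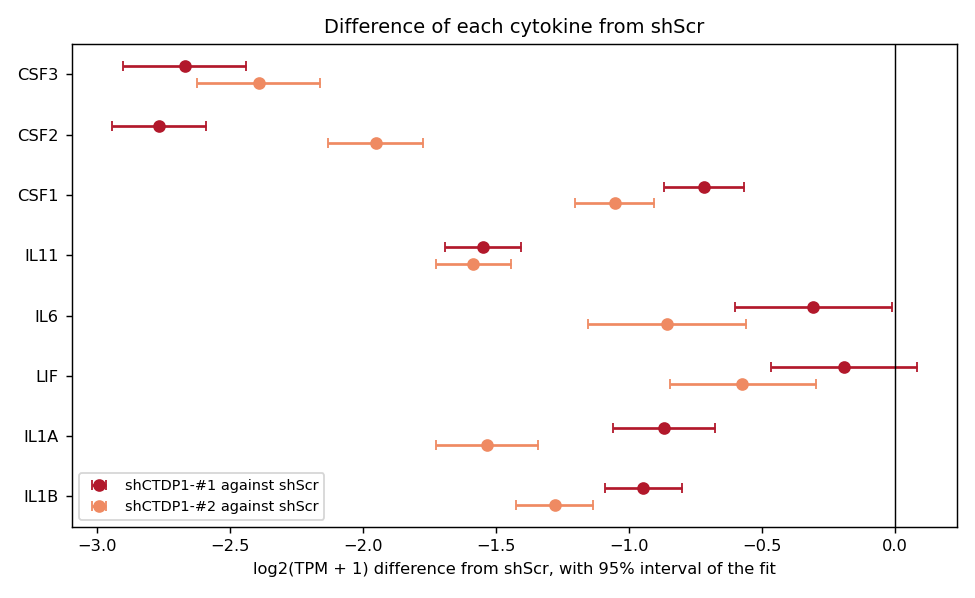
Difference from shScr in log2(TPM + 1) (horizontal axis) for each cytokine (vertical axis), with the 95% interval of the fit, for shCTDP1-#1 and shCTDP1-#2. CSF3 and CSF2 lie farthest to the left, at -2.67 and -2.77 with shCTDP1-#1, and LIF lies nearest to 0, at -0.19.

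All 8 genes passed the filter on low values (at least 1 TPM in at least 3 libraries). With shCTDP1-#1, 6 of the 8 were past an adjusted p of 0.05 in the lower direction and 0 in the higher, where 27.7% of all tested intervals were called lower and 35.4% higher. With shCTDP1-#2 it was 8 of 8, where 24.6% of all tested intervals were called lower and 39.5% higher. The set was built on these comparisons, so nothing is read from these counts. The median log2 difference of the 8 genes was -0.91 with shCTDP1-#1 and -1.405 with shCTDP1-#2, beside medians of 0.07 and 0.13 over all tested intervals. Both comparisons share the 3 shScr libraries.

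The order of the levels differed between the groups. With shCTDP1-#1 the order was CSF1, IL11, IL1B, LIF, IL6, CSF2, IL1A and CSF3, and the neighbouring pairs IL11 and IL1B, IL1B and LIF, and IL1A and CSF3 overlapped between libraries. With shCTDP1-#2 it was CSF1, IL11, IL1B, LIF, CSF2, IL6, CSF3 and IL1A, with overlap between CSF1 and IL11, IL1B and LIF, and LIF and CSF2. With shScr it was IL11, CSF2, CSF1, IL1B, CSF3, LIF, IL6 and IL1A, with overlap between CSF2 and CSF1 and between LIF and IL6. The share of CSF2 in the summed cytokine level was 5.41% to 5.75% with shCTDP1-#1 and 11.02% to 11.93% with shCTDP1-#2, against 16.12% to 17.75% with shScr. LIF took 13.8% to 15.8% with shCTDP1-#1 and 10.86% to 14.44% with shCTDP1-#2, against 6.34% to 8.15% with shScr. Because a share falls when others rise, these values describe the mix and not the level.

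CSF3 was picked for a low level with both hairpins, which favours a small difference between them. The other cytokines were selected on earlier results of these data, which may include the comparison of the hairpins with each other. The adjusted p-values of the cytokines in this comparison are therefore given as a description. In shCTDP1-#2 against shCTDP1-#1, 2 of the 8 genes were higher and 5 lower at a limma adjusted p under 0.05, where 30.2% of all tested intervals were called higher and 20% lower (50.2% in either direction). CSF2 was higher by 0.81 on the log2 scale (SE 0.08, limma adjusted p = 1.5e-05), and all 3 shCTDP1-#2 libraries lay above all 3 with shCTDP1-#1. IL1A was lower, with a log2 difference of -0.66 (SE 0.09, limma adjusted p = 0.00011), as were IL6 at -0.55 (SE 0.13, adjusted p = 0.0057), LIF at -0.38 (SE 0.12, adjusted p = 0.025), CSF1 (adjusted p = 0.0018) and IL1B (adjusted p = 0.0017). LIF lost the call without shCTDP1-#1 replicate 2 (log2 difference -0.30, limma adjusted p = 0.093), without shCTDP1-#2 replicate 2 (-0.29, adjusted p = 0.095) without shCTDP1-#2 replicate 3 (-0.35, adjusted p = 0.073), and with no filter on low values (-0.38, adjusted p = 0.064). CSF3 was higher by 0.28 (SE 0.10, limma adjusted p = 0.046), a call that was lost in 11 of 15 alternatives, among them without shCTDP1-#1 replicate 3, where the difference was 0.145 (adjusted p = 0.12). IL11 was not called, with a difference of -0.035 and a 95% interval of -0.18 to 0.11.

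CTDP1 was higher with shCTDP1-#2 than with shCTDP1-#1 by 0.44 on the log2 scale (SE 0.10, limma adjusted p = 0.0036). Of the cytokines, CSF2 and CSF3 were likewise higher with shCTDP1-#2, and CSF1, IL6, LIF, IL1A and IL1B were lower with it, so the level of CTDP1 and that of most cytokines did not follow the same order between the hairpins. Whether the remaining CTDP1 level bears on these differences was not tested.

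Over the 9 libraries, the listed genes whose log2 levels were most like those of CSF3 were CTDP1 (Pearson r = 0.984) and IL11 (r = 0.983). Over all autosomal intervals, the highest values were those of an interval on chromosome 12 from 112842994 to 112856642 (r = 0.999) and of one on chromosome 5 from 170814120 to 170838141 (r = 0.998). The chromosome 12 interval was at 1902.8 to 1994.82 TPM with shCTDP1-#1 and at 2023.61 to 2062.77 TPM with shCTDP1-#2, against 2698.27 to 2774.38 TPM with shScr. These correlations rest on 9 points in 3 groups that share their libraries, and mostly describe the distance between the groups. CSF3 was chosen for that distance, IL11 was selected on earlier results of these data, and CTDP1 is the targeted transcript. Their likeness is therefore built in and is no separate result.

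None of the tested intervals around CSF3 differed from shScr by as much as CSF3. Because CSF3 was chosen for its low level against shScr, smaller changes nearby follow from that choice and tell nothing particular about the locus. The other cytokines were selected on earlier results of these data, so the same limit holds for their neighbours below. Within 100 kb, 6 of 11 neighbouring intervals were tested. The nearest tested one, from 38175350 to 38217468 and 1284 bases away, was at 52.83, 62.85 and 67.44 TPM with shCTDP1-#1 and at 75.94, 72.08 and 73.39 TPM with shCTDP1-#2, against 84.71, 91.02 and 79.61 TPM with shScr. It was lower with shCTDP1-#1 (log2 change -0.48, SE 0.08, limma adjusted p = 0.00049) and not called with shCTDP1-#2 (-0.20, SE 0.08, adjusted p = 0.053). With shCTDP1-#1, 2 of the 6 were called higher and 2 lower, where 35.4% of all tested intervals were called higher and 27.7% lower. With shCTDP1-#2, 3 were called higher and 0 lower, where 39.5% of all tested intervals were called higher and 24.6% lower. The interval from 38077294 to 38083854 rose with both, by 1.09 with shCTDP1-#1 (SE 0.08, limma adjusted p = 7.4e-07) and by 0.64 with shCTDP1-#2 (SE 0.08, adjusted p = 3.9e-05). The interval from 38249040 to 38256978 rose with both, by 0.93 with shCTDP1-#1 (SE 0.08, limma adjusted p = 3.7e-06) and by 0.85 with shCTDP1-#2 (SE 0.08, adjusted p = 7.6e-06).

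**Figure D4:**
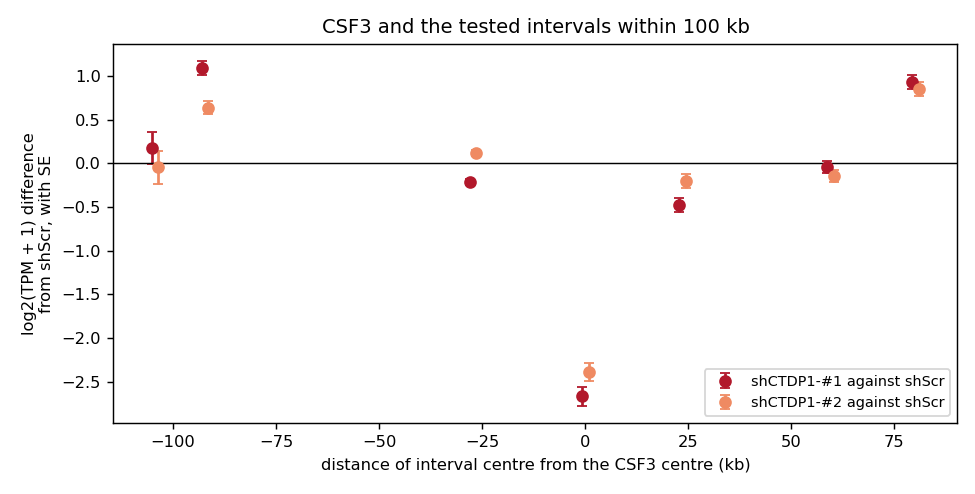
Difference from shScr in log2(TPM + 1) with its SE (vertical axis) of CSF3 and of the 6 tested intervals within 100 kb, by distance of the interval centre from the CSF3 centre in kb (horizontal axis; the hairpins are set slightly apart). CSF3, at 0 kb and chosen for its low level, lies at -2.67 and -2.39, and no neighbour lies under -0.48.

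The shares over all tested intervals are also the background for the neighbours of the other cytokines. They were 35.4% called higher and 27.7% lower with shCTDP1-#1, and 39.5% and 24.6% with shCTDP1-#2. Around IL11, 3 of 8 tested neighbours were called lower and 1 higher with either hairpin. None fell by as much as IL11 (most negative log2 change -0.77 with shCTDP1-#1 and -0.79 with shCTDP1-#2). CSF2 had 6 neighbours within 100 kb, none of which passed the filter on low values. IL1A and IL1B lie within 100 kb of each other, and so each is 1 of the other's 2 tested neighbours. The 1 other interval, shared by both, was called lower with both hairpins, and its log2 change of -1.13 with shCTDP1-#1 was more negative than that of IL1A (-0.87) or IL1B (-0.945). Of 3 tested neighbours of LIF, 1 was called lower with each hairpin, and 1 was called higher with shCTDP1-#1 and 0 with shCTDP1-#2. The lower calls were at -0.91 with shCTDP1-#1, where LIF was at -0.19, and at -0.54 with shCTDP1-#2. The 1 tested neighbour of CSF1 was called lower with shCTDP1-#1 (-0.55) and higher with shCTDP1-#2 (0.19). Neither of the 2 tested neighbours of IL6 was called lower with either hairpin, and 1 was called higher with shCTDP1-#1 and 0 with shCTDP1-#2.

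Receptors, signalling proteins, feedback inhibitors and other inflammatory genes of the same pathways were taken from a list of 26, of which 25 were matched to an interval and 20 passed the filter. With shCTDP1-#1, 8 rose, 6 fell and 6 did not pass an adjusted p of 0.05. With shCTDP1-#2, 8 rose, 6 fell and 6 did not pass, but after median-of-ratios scaling 5 were called higher and 9 lower. The median log2 change of the 20 was 0.16 with shCTDP1-#1 and 0.04 with shCTDP1-#2, beside 0.07 and 0.13 over all tested intervals, where 63.1% and 64% were called in either direction. The shares called higher and lower over all tested intervals, 35.4% and 27.7% with shCTDP1-#1 and 39.5% and 24.6% with shCTDP1-#2, are the background for every count by role below.

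Among 9 receptor genes, 7 were tested and 2 rose and 2 fell with each hairpin. IL6ST, the shared signalling subunit for IL-6, LIF and IL-11, was at 132.02, 147.63 and 169.98 TPM with shCTDP1-#1 and at 208.16, 204.06 and 210.22 TPM with shCTDP1-#2, against 151.36, 145.81 and 131.74 TPM with shScr. It rose with shCTDP1-#2 (log2 change 0.54, SE 0.08, limma adjusted p = 2e-04) and was not called with shCTDP1-#1 (0.06, SE 0.08, adjusted p = 0.53). LIFR, the LIF receptor, was not called with either hairpin, at log2 changes of 0.07 and -0.11 (SE 0.10 each). IL1RAP, the co-receptor that interleukin-1 needs to signal, fell with both, at log2 changes of -0.78 and -0.34 (SE 0.105 each, limma adjusted p = 8.5e-05 and 0.016); the second call was lost without shScr replicate 2 (log2 change -0.275, limma adjusted p = 0.066) and without shCTDP1-#2 replicate 1 (-0.26, adjusted p = 0.063). IL1R1, the signalling receptor of interleukin-1, was at 5.33, 5.49 and 4.8 TPM with shCTDP1-#1 and at 3.12, 2.55 and 2.12 TPM with shCTDP1-#2, against 3.2, 3.24 and 3.24 TPM with shScr. It rose with shCTDP1-#1 (log2 change 0.55, limma adjusted p = 0.0029), was not called with shCTDP1-#2 (-0.24, adjusted p = 0.12), and differed between the hairpins. IL11RA, the specific IL-11 receptor subunit, rose with both hairpins (log2 changes 0.56 and 0.33, limma adjusted p = 0.0011 and 0.021). The second call was lost without shCTDP1-#2 replicate 2 (limma adjusted p = 0.081), shScr replicate 2 (0.053) or shScr replicate 3 (0.057), and after median-of-ratios scaling (0.097). CSF1R, the CSF1 receptor, was called lower with both (-0.53 and -0.72, SE 0.21 each, limma adjusted p = 0.049 and 0.013), with overlap between shCTDP1-#1 and shScr. The first call was lost in 11 of 15 alternatives (-0.34 without shScr replicate 2, limma adjusted p = 0.19), and the second without shScr replicate 2 (-0.53, adjusted p = 0.053). An interval inside CSF1R reached 14.45 TPM, above the 1.65 to 5.65 TPM of CSF1R itself, and reads of the 2 cannot be told apart without strand. Intervals within IL6ST reached 20.14 TPM. CSF3R and CSF2RB, receptor genes for G-CSF and for GM-CSF, were at or below 0.12 TPM in all libraries. The decoy receptor gene IL1R2 and the antagonist gene IL1RN were at or below 0.64 TPM and were not tested.

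Of 7 signalling genes, 4 were called higher and 1 lower with each hairpin, not the same ones: RELA and JAK1 with both, MYD88 and NFKB1 with shCTDP1-#1, and JAK2 and CEBPB with shCTDP1-#2. NFKB1 (log2 change 0.18, limma adjusted p = 0.047) lost its call in 9 of 15 alternatives and was at 0.10 without shCTDP1-#1 replicate 3 (adjusted p = 0.17). JAK2 (0.335, adjusted p = 0.042) lost its call in 11 of 15. CEBPB, a transcription factor of cytokine genes, rose with shCTDP1-#2 (0.60, SE 0.06, limma adjusted p = 1.2e-05) and not with shCTDP1-#1 (-0.008, adjusted p = 0.92). RELA, the transactivating subunit of NF-kappa B, was at 111.85, 111.76 and 114.42 TPM with shCTDP1-#1 and at 93.69, 86.91 and 87.71 TPM with shCTDP1-#2, against 74.12, 74.29 and 73.67 TPM with shScr. It rose by 0.60 with shCTDP1-#1 (SE 0.04, limma adjusted p = 4.6e-07) and by 0.27 with shCTDP1-#2 (SE 0.04, adjusted p = 0.00017). MYD88, the adaptor of the interleukin-1 receptor, was at 114.04, 111.76 and 120.07 TPM with shCTDP1-#1 and at 44.77, 44.97 and 42.08 TPM with shCTDP1-#2, against 44.49, 42.25 and 44.48 TPM with shScr. It was high with shCTDP1-#1 alone: its log2 change was 1.38 with that hairpin (SE 0.05, limma adjusted p = 5.5e-09) and 0.006 with shCTDP1-#2 (SE 0.05, adjusted p = 0.92), and the difference between the hairpins was called (-1.37, adjusted p = 1.6e-08). JAK1, a kinase of cytokine receptors, rose with both (0.85 and 0.44, SE 0.08 each, limma adjusted p = 7.9e-06 and 0.00095). After median-of-ratios scaling the MYD88 change with shCTDP1-#2 was -0.125 (SE 0.05, limma adjusted p = 0.04). STAT3 fell slightly with both hairpins (log2 change -0.17, SE 0.06 each, limma adjusted p = 0.023 and 0.022). That call was lost without shScr replicate 2 with either hairpin (limma adjusted p = 0.078 and 0.074), without shCTDP1-#1 replicate 1 for that hairpin (adjusted p = 0.09), and without shCTDP1-#2 replicate 1 or 2 for that one (adjusted p = 0.066 and 0.051).

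The feedback inhibitors moved in different directions. SOCS3, which dampens cytokine receptor signalling through JAK kinases, rose by 0.52 (SE 0.06, limma adjusted p = 3.3e-05) with shCTDP1-#1 and by 0.22 (SE 0.06, adjusted p = 0.009) with shCTDP1-#2; after median-of-ratios scaling the second was 0.09 (adjusted p = 0.2). NFKBIA, the inhibitor that holds NF-kappa B in the cytoplasm, fell with both, to 115.7 ± 1.47 TPM with shCTDP1-#1 and 114 ± 2.97 TPM with shCTDP1-#2, against 136.4 ± 1.66 TPM with shScr (mean ± SD, n = 3 each), with limma adjusted p of 0.00016 and 8.8e-05. TNFAIP3, an enzyme that restrains NF-kappa B, was not called with shCTDP1-#1 (log2 change 0.14, limma adjusted p = 0.24) and was lower with shCTDP1-#2 (-0.29, adjusted p = 0.026). The second call was lost without shScr replicate 1 (-0.22, adjusted p = 0.099), without shScr replicate 3 (-0.27, adjusted p = 0.068) and without shCTDP1-#2 replicate 2 (-0.24, adjusted p = 0.087). It was also lost with no filter on low values (-0.29, limma adjusted p = 0.057).

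**Figure D5:**
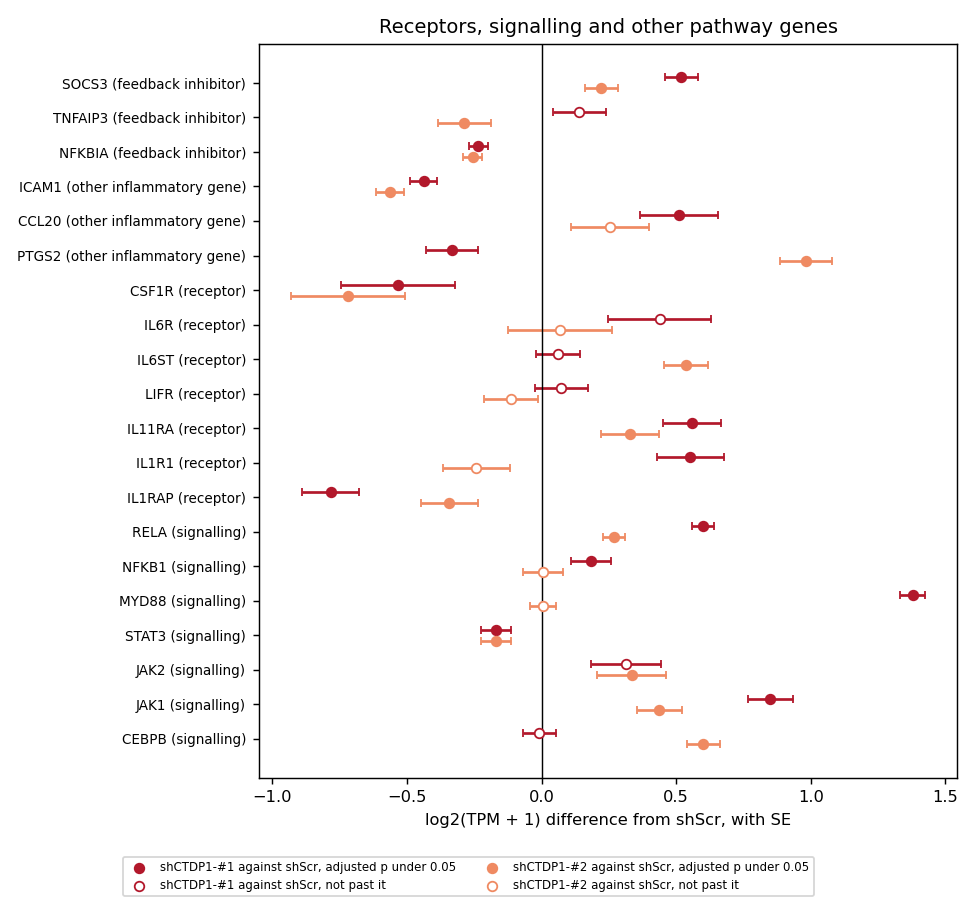
Difference from shScr in log2(TPM + 1) with its SE (horizontal axis) of the 20 tested pathway genes (vertical axis, role in brackets) with shCTDP1-#1 and shCTDP1-#2. Filled points are past an adjusted p of 0.05 and open points are not; MYD88 lies at 1.38 with shCTDP1-#1 and at 0.006 with shCTDP1-#2.

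Of 4 other matched inflammatory genes, 3 were tested. ICAM1, an adhesion molecule induced by interleukin-1, fell to 105.6 ± 1.92 TPM with shCTDP1-#1 and 96.95 ± 5.03 TPM with shCTDP1-#2, against 143.6 ± 7.90 TPM with shScr (mean ± SD, n = 3 each), with limma adjusted p of 2.8e-05 and 4.6e-06. PTGS2, the inducible cyclooxygenase, was at 6.8, 6.51 and 7.71 TPM with shCTDP1-#1 and at 20.73, 17.68 and 18.32 TPM with shCTDP1-#2, against 9.21, 9.75 and 8.29 TPM with shScr. It fell with shCTDP1-#1 (log2 change -0.33, SE 0.10, limma adjusted p = 0.011) and rose with shCTDP1-#2 (0.98, SE 0.10, adjusted p = 8.2e-06). CCL20, a chemokine that attracts lymphocytes and dendritic cells, rose with shCTDP1-#1 (0.51, SE 0.145, limma adjusted p = 0.01) and was not called with shCTDP1-#2 (0.25, SE 0.145, adjusted p = 0.15). Its levels lay near the filter of 1 TPM. They were 2.45, 1.66 and 2.2 TPM with shCTDP1-#1 and 1.5, 1.66 and 1.58 TPM with shCTDP1-#2, against 1.15, 1.31 and 1.04 TPM with shScr. With a pseudocount of 0.1 TPM the change with shCTDP1-#1 was 0.79.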

How the data were processed

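The submitters' processing notes name STAR, RSEM and hg19; versions and annotation are not given in the sources used here. TPM values were deposited by the authors, with 57773 intervals for every library. The unit was read from the values, which total the same in all 9. Rows with an interval in common, 2246 of them, were dropped. TPM keeps no depth, so no counting interval is given.

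A limma model (version 3.58.1, R 4.3.3, with statmod 1.5.0; mean trend, robust) of group means was fitted to log2(TPM + 1) of all 9 libraries, over the 15011 intervals that reached 1 TPM in 3 or more, and p-values were adjusted over all of these by Benjamini-Hochberg. Fold changes on this scale understate those of low intervals. The fit was tested on simulated data: a first requirement, on the share of 2-fold changes recovered, was not met and was replaced, after that was seen, by checks of null p-values and interval coverage, which it met. The members, lists and tests were chosen with earlier results of these data known.

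Cytokines were matched by given hg19 spans, and other genes by spans written from general knowledge, at an overlap over union of at least 0.5 (38 of 40 matched, the lowest at 0.811). TNF and PTPRC were not analysed here. Named pathway genes were, in each role, the 3 of highest mean TPM; further genes of the list were named where a count of 5 or fewer singled them out, and CSF3R and CSF2RB after their values were seen. Alternatives were another pseudocount (0.1 TPM), no filter, upper-quartile and median-of-ratios scaling, a replicate block, only the groups compared, and each library left out.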

Additional observations from a re-analysis of the deposited data

Results flagged for a closer look

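These genes are listed because the hairpins differed in them by the test of shCTDP1-#2 against shCTDP1-#1, with limma p-values adjusted over all tested intervals. Such a call is common, as 50.2% of all tested intervals had one. Of the 20 tested pathway genes, 4 were higher, 6 lower and 10 not called, so the list does not set them apart. Among the cytokines the log2 differences were 0.28 for CSF3, 0.81 for CSF2, -0.34 for CSF1, -0.55 for IL6, -0.38 for LIF, -0.66 for IL1A and -0.33 for IL1B. The call of CSF3 was lost in 11 of 15 alternatives and that of LIF in 4 of 15. Among the pathway genes they were 0.47 for IL6ST, 0.44 for IL1RAP, -0.79 for IL1R1, -0.41 for JAK1, -1.37 for MYD88, -0.33 for RELA, 0.61 for CEBPB, -0.30 for SOCS3, -0.43 for TNFAIP3 and 1.31 for PTGS2. Groups of 3 libraries are too small for the check for a library that lies apart.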

How the results depend on the processing

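The cytokines were chosen for low levels, so their signs against shScr are no test of stability. The number called lower than shScr was 6 or 7 with shCTDP1-#1 and 8 with shCTDP1-#2. Between the hairpins, cytokines called higher with shCTDP1-#2 numbered 1 with no filter, with upper-quartile and median-of-ratios scaling and with only the libraries compared, against 2 as reported, and 1 to 2 with a library left out, since CSF3 lost its call. Pathway genes called higher with shCTDP1-#2 than with shScr numbered 5 after median-of-ratios scaling, against 8, and those lower 9, against 6; those lower ran from 3 to 6 with a library left out (3 without shScr replicate 2). Between the hairpins 10 were lower after median-of-ratios scaling, against 6. That scaling moved the median log2 change of all intervals with shCTDP1-#2 to 0.013, against 0.13 as deposited, and MYD88 reversed with shCTDP1-#2, to -0.125. The share of calls that were higher with shCTDP1-#2 was 61.6% as deposited, 55.7% after upper-quartile and 50.3% after median-of-ratios scaling.

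Replicate numbers recur in the groups, but deviations of same-numbered libraries correlated at only -0.007 to 0.053, and of other-numbered ones at -0.046 to 0.024; for 8 of 9 libraries the best match had the same number, which hints at pairing in the data but is not part of the design. With the replicate block, 6 and 8 cytokines were lower than shScr, and 2 were higher and 5 lower in shCTDP1-#2 against shCTDP1-#1, as without it. Under the block CSF1R with shCTDP1-#1 (limma adjusted p = 0.07) and JAK2 with shCTDP1-#2 (adjusted p = 0.063) lost their calls, and IL6R with shCTDP1-#1 gained one (0.44, adjusted p = 0.039). The depth of the libraries is unknown and no sampling error could be set.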
